A study of Mus musculus with 12 samples.

Results

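Megabase-range contacts of 10 enhancer viewpoints in mouse embryonic stem cells were taken as the pairs of DpnII fragments, caught together with a viewpoint in 1 Tri-C read, in which at least 1 fragment midpoint lay over 1 Mb from the start of the viewpoint's capture oligo. The rule used only that distance and no count. It selected 51024 distinct fragment pairs, out of 75776 megabase-range pairs of all 23 viewpoints and 151347 fragment pairs of any distance. In counts, the members made up 32203 of the 93134 counts of these viewpoints in the naive state and 30039 of 74236 in the primed state. The viewpoints were Sox2-SE, Txnip-distal-SE and Elovl6-SE1 on chromosome 3, cMyc and cMyc-2 on chromosome 15, and Klf4-distal-SE, Tdgf1-Lrrc2-SE, Dnmt3a-116kb, Lefty1-2 and Malt1 on chromosomes of their own.

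Tri-C is a capture variant of chromosome conformation capture. Crosslinked chromatin is cut, ends that lie near each other are ligated, and fragments joined to a chosen viewpoint are pulled out with a biotinylated oligo, so that a read with several fragments reports regions that met the viewpoint in the same cell. Contact frequency falls with distance along a chromosome, and contacts across many megabases follow mainly the folding of whole chromosomes, in which gene-rich, active stretches and gene-poor, silent stretches tend to lie with their own kind. Super-enhancers (SE), dense groups of enhancers bound by the pluripotency factors, are among the strongest regulatory elements in embryonic stem cells.

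All cells were of J1, a line of mouse embryonic stem cells. Naive cells (day 0) grew on gelatin in N2B27 with LIF and 2i, which pairs the MEK inhibitor PD0325901 with the GSK3 inhibitor CHIR99021. Primed cells came from the same line after 7 days on Geltrex in that medium without 2i, LIF and BSA, with Fgf2, Activin A and a low amount of Knockout Serum Replacement added. Each state had 3 biological replicates, and each replicate was captured with both of 2 oligo pools, which gave 12 samples. Each deposited table joined the replicates of 1 state for 1 viewpoint, so no difference between the states could be tested against the spread between replicates. All intervals given here are 95% intervals of counting error alone, exact where not said otherwise. PCR copies, and reads with more than 2 reporter fragments, which add several pairs, make counts less independent than these intervals assume, so the shares, the part with both fragments far, the bins and the gene-density folds were also recomputed with every distinct fragment pair counted once. The classes of distance, the sides and the comparison of both Myc viewpoints were not.

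The viewpoints differed in depth. cMyc-2 had the most counts of any distance (27975 naive and 24989 primed), followed by cMyc (17055 and 11990), Sox2-SE (15441 and 13190) and Txnip-distal-SE (10793 and 7299). Malt1 (682 and 485) and Lefty1-2 (1053 and 791) were so shallow that no single bins of theirs are described. In mm10, Dnmt3a-116kb lies inside Dtnb on chromosome 12, Elovl6-SE1 inside Elovl6 and Txnip-distal-SE inside Ankrd35, both on chromosome 3. The others lie between genes. Sox2-SE (chromosome 3) is between Sox2 and Atp11b, Klf4-distal-SE (chromosome 4) between Rad23b and Klf4, Tdgf1-Lrrc2-SE (chromosome 9) between Tdgf1 and Lrrc2, Lefty1-2 (chromosome 1) between Sde2 and Lefty2, and Malt1 between Alpk2 and Malt1. On chromosome 15, cMyc lies just before the Myc gene and cMyc-2 just after it, 31.5 kb apart from each other.

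The capture oligos, each 100 bases long, fixed the point from which every distance was measured, and 6 of them are shown. Klf4-distal-SE gave the highest ratio between the states over all counts, and the other 5 share chromosome 3 or chromosome 15. None holds the DpnII site GATC, so each oligo lies within a single restriction fragment, and all letters are in lower case because no base in them is singled out.
Klf4-distal-SE, mm10 chr4:55475439-55475538: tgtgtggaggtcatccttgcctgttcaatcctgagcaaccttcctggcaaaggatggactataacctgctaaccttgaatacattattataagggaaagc
Sox2-SE, mm10 chr3:34745994-34746093: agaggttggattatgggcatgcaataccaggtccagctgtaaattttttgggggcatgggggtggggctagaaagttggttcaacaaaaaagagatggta
Txnip-distal-SE, mm10 chr3:96678831-96678930: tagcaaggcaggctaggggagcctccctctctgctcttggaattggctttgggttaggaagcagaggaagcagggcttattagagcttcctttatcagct
Elovl6-SE1, mm10 chr3:129551892-129551991: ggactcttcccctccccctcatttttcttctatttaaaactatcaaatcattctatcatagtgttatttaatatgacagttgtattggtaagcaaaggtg
cMyc, mm10 chr15:61979284-61979383: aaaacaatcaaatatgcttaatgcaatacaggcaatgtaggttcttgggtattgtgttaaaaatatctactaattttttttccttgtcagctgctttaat
cMyc-2, mm10 chr15:62010774-62010873: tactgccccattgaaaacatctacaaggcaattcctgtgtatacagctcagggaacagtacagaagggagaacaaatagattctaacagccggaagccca
The oligos differed in base composition, from 29% G and C for cMyc to 52% for Txnip-distal-SE.

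In the naive state, Sox2-SE had the lowest megabase-range share, 22.6% of its counts, and Elovl6-SE1 the highest, 42.6%. The share was higher in the primed state at 9 of the 10 viewpoints, and at 8 of them the interval of the ratio lay above 1. Over all 23 viewpoints the percent called was 39.1, and no viewpoint was called lower; 12 of those 23 viewpoints together held 387 counts in the naive state, too few for a call. Klf4-distal-SE, an enhancer cluster of the pluripotency factor gene Klf4, had the highest ratio over all counts, from 38.7% (95% interval 36.6 to 40.8) to 53.1% (51.2 to 54.9). Its share was thus 1.37 times higher (1.26 to 1.49). Without counts that held a fragment within 10 kb of the oligo, its ratio was 1.19, below those of Txnip-distal-SE (1.24) and Dnmt3a-116kb (1.20). At Sox2-SE, the control region of Sox2, the share went from 22.6% to 29.9%, a ratio of 1.32 (1.26 to 1.38).

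The viewpoints named after Txnip, a regulator of redox and glucose metabolism, and after Dnmt3a, the de novo DNA methyltransferase, showed similar ratios. Txnip-distal-SE went from 32.0% to 40.4%, a ratio of 1.27 (1.20 to 1.33), and Dnmt3a-116kb from 33.9% to 41.0%, a ratio of 1.21 (1.14 to 1.28). Tdgf1-Lrrc2-SE, next to the Nodal co-receptor gene Tdgf1, went from 39.2% to 46.6%, a ratio of 1.19 (1.11 to 1.28), which without counts that held a fragment within 10 kb of the oligo was 1.05 (0.968 to 1.14) and not called. The viewpoints at Myc, the gene of a transcription factor for growth, differed from each other: cMyc went from 35.5% to 42.7%, a ratio of 1.21 (1.16 to 1.25), and cMyc-2 from 38.8% to 42.3%, a ratio of 1.09 (1.06 to 1.12). Both intervals lay above 1 and they did not overlap. Elovl6-SE1, within the gene of a fatty acid elongase, had the smallest called ratio, 1.07 (1.01 to 1.14), and this one turned to 0.991 (0.931 to 1.06) when each distinct pair was counted once. Neither of the shallow viewpoints was called. Lefty1-2, in the locus of the Nodal inhibitors Lefty1 and Lefty2, went from 34.9% to 30.3%, a ratio of 0.868 (0.735 to 1.02), and Malt1, at a gene of immune signalling, from 31.1% to 31.8%, a ratio of 1.02 (0.825 to 1.26). For comparison, the share at the Nanog viewpoint Dppa3-37kb, the deepest of the series, went from 36.7% to 46.1%, a ratio of 1.26 (1.23 to 1.29).

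**Figure D1:**
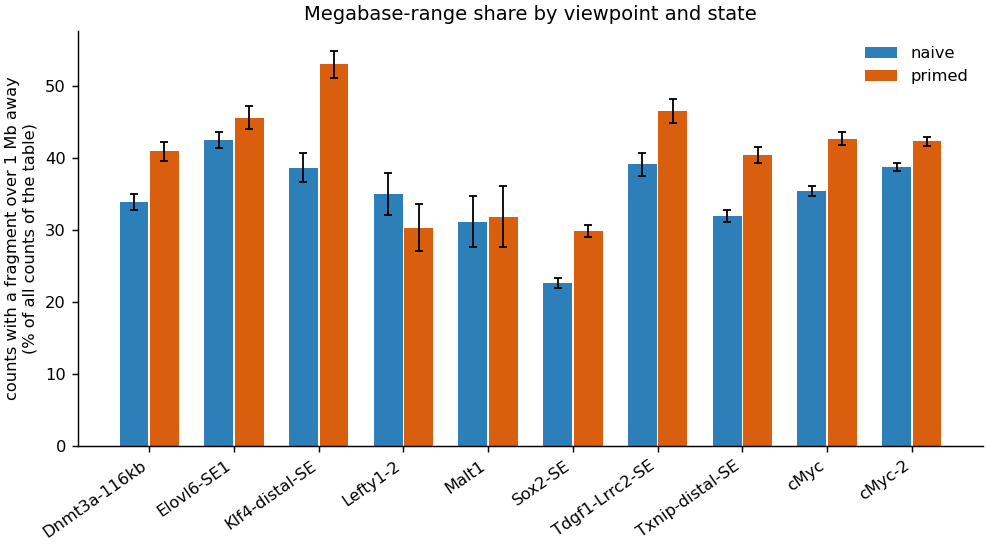
Share of all counts that held a fragment over 1 Mb from the viewpoint (vertical axis, in percent), for the 10 viewpoints in the naive and the primed state; bars are single pooled tables and error bars are exact 95% counting intervals. The primed bar is higher at 9 viewpoints, from 53.1% against 38.7% at Klf4-distal-SE to 31.8% against 31.1% at Malt1, and lower at Lefty1-2.

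The members differed in what the fragment beside the far one was. In the median viewpoint, both fragments lay over 1 Mb away in 53.9% of the naive and 56.2% of the primed member counts, with extremes at Sox2-SE (42.1% naive) and Malt1 (79.2% naive). Most of these double-far counts were local at the distant place: in the median viewpoint, 69.6% (naive) and 67.0% (primed) of them joined fragments under 100 kb from each other, and 40.0% and 41.1% joined direct neighbours on the restriction map. Far fragments on opposite sides of the viewpoint were rare, at most 6.50% of the members of any viewpoint (Klf4-distal-SE, primed). Where the second fragment lay within 1 Mb, it was mostly close to the viewpoint, within 100 kb in a median of 74.8% (naive) and 70.6% (primed) of such counts. cMyc was lowest here, with 51.9% and 49.0%.

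Between the states, the double-far part of the members was called higher in the primed state at Tdgf1-Lrrc2-SE (1.10, 1.003 to 1.21) and cMyc (1.07, 1.02 to 1.13) and lower at none. The first call was lost over distinct pairs (1.08, 0.976 to 1.20) and the second with a limit of 2 Mb (1.03, 0.960 to 1.10). Counts that joined a far fragment to a fragment within 100 kb of the viewpoint made up a smaller part of the members in the primed state at 5 viewpoints (Klf4-distal-SE, Sox2-SE, Tdgf1-Lrrc2-SE, cMyc and cMyc-2) and a larger part at none. Few exact fragment pairs recurred. At Sox2-SE, 32 pairs were found in both states, 1.10% of its 2920 naive and 0.971% of its 3295 primed member pairs, and at cMyc, the viewpoint with the highest share, 153 pairs, 3.01% of 5084 and 3.69% of 4141. Single far pairs were thus sampled sparsely, and the further comparisons used classes of distance and bins of 500 kb.

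The density of far fragments was highest within the first 5 Mb of every viewpoint, and its fall beyond was unequal and not always steady. Per Mb of chromosome and 1000 counts, cMyc had 100 far fragments between 1 and 2 Mb and 3.16 between 10 and 20 Mb in the naive state, a 31.7-fold fall, and 155 and 3.85 in the primed state, a 40.2-fold fall. Klf4-distal-SE fell 23.3-fold and 20.4-fold over the same distances. The fall was shallow at Dnmt3a-116kb, 3.17-fold and 3.57-fold, and at Tdgf1-Lrrc2-SE, 3.64-fold and 2.58-fold. At the latter the density was higher between 2 and 5 Mb (32.5 naive and 33.0 primed) than between 1 and 2 Mb (26.1 and 26.4), and at Dnmt3a-116kb it was higher between 10 and 20 Mb (15.1 and 15.8) than between 5 and 10 Mb (9.10 and 15.0). In the naive state the same held at Malt1 (7.99 and 3.96) and Lefty1-2 (6.07 and 4.94), and at Elovl6-SE1 the density was 5.87 between 10 and 20 Mb and 6.14 between 20 and 50 Mb. Dnmt3a-116kb lies near the start of chromosome 12, at 3692095, and had no sequence over 1 Mb upstream in the files, so all its far fragments lay on 1 side. The median distance of far fragments became shorter at the Myc viewpoints, from 3.42 to 2.24 Mb at cMyc and from 9.53 to 6.44 Mb at cMyc-2, and at Klf4-distal-SE, from 9.89 to 6.51 Mb. It became longer at Tdgf1-Lrrc2-SE, from 8.26 to 9.79 Mb, and at Txnip-distal-SE, from 8.16 to 9.28 Mb.

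**Figure D2:**
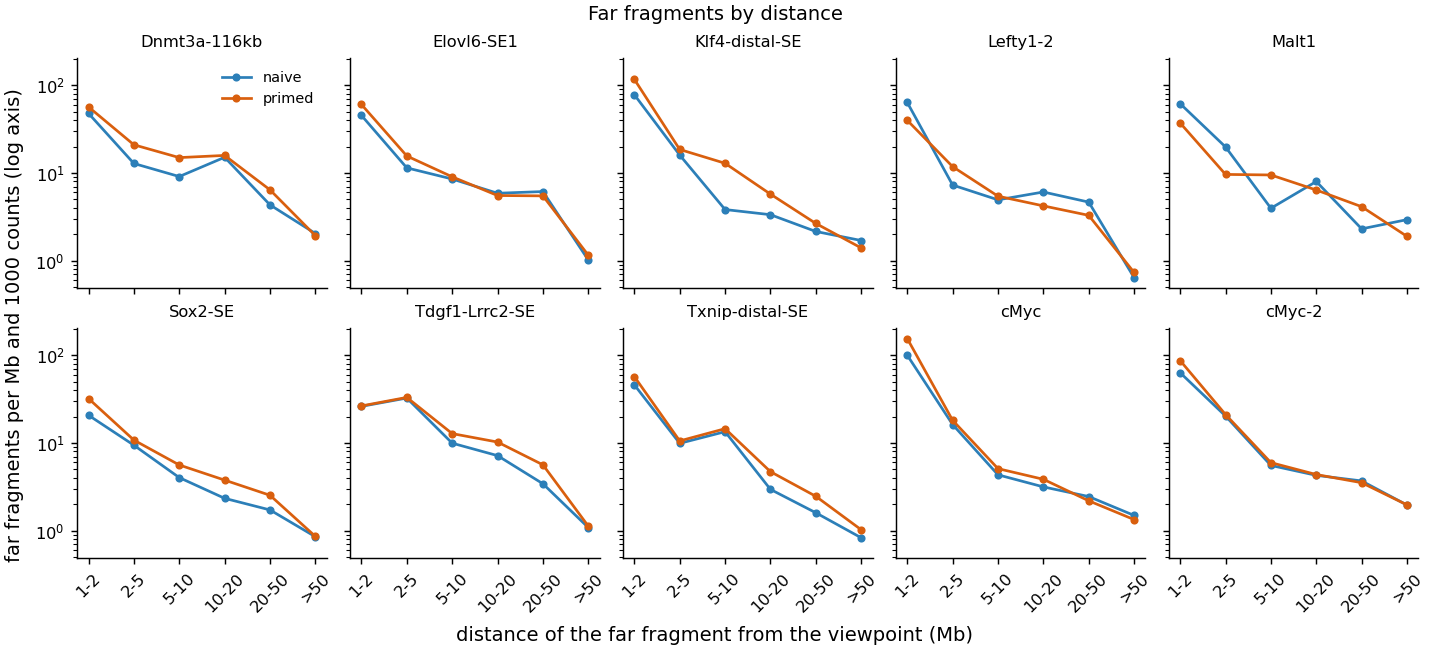
Far fragments per Mb of chromosome and per 1000 counts of the table (vertical log axis) in 6 classes of distance from the viewpoint (horizontal axis, Mb), one panel per viewpoint, naive and primed; points are single pooled tables and the line joins them. The fall from 1-2 Mb to 10-20 Mb is steep for cMyc (100 to 3.16, naive) and shallow for Dnmt3a-116kb (47.8 to 15.1, naive).

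The gain in the primed state was not spread evenly over distance, and the viewpoints fell into different patterns. By the distance of the farther fragment, the share of all counts was called higher in the primed state at 6 viewpoints for 1 to 2 Mb, at 3 for 2 to 5 Mb, at 7 for 5 to 10 Mb, at 5 for 10 to 20 Mb, at 6 for 20 to 50 Mb and at 1, Txnip-distal-SE, beyond 50 Mb. Calls in the other direction were Malt1 for 2 to 5 Mb and Lefty1-2, cMyc and cMyc-2 for 20 to 50 Mb. Among the higher calls for 2 to 5 Mb was Dnmt3a-116kb, with 162 naive and 202 primed counts, a ratio of 1.535 (1.242 to 1.899). There, 1 fragment 4.738 Mb from the viewpoint held 57 primed counts in 3 distinct pairs and 0 naive counts. The ratio was not recomputed without that fragment, so this call may depend on it. At the Myc viewpoints the ratio was highest in the nearest class. For cMyc, the 1 to 2 Mb class went from 12.5% to 18.7% of all counts, a ratio of 1.50 (1.42 to 1.60), whereas the 20 to 50 Mb class went from 9.02% to 8.04%, a ratio of 0.892 (0.822 to 0.967). Between them, cMyc was also called higher for 2 to 5 Mb (1.10, 1.003 to 1.21), 5 to 10 Mb (1.21, 1.06 to 1.39) and 10 to 20 Mb (1.21, 1.09 to 1.35). For cMyc-2 the nearest and the 20 to 50 Mb ratios were 1.46 (1.37 to 1.54) and 0.948 (0.904 to 0.994), and no class between them was called. With members limited to fragments over 2 Mb away, the ratio was 1.04 (0.994 to 1.10) at cMyc and 1.01 (0.975 to 1.04) at cMyc-2.

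At Sox2-SE the ratios were 1.46 (1.29 to 1.66) for 1 to 2 Mb, 1.60 (1.40 to 1.82) for 5 to 10 Mb, 1.55 (1.38 to 1.73) for 10 to 20 Mb and 1.45 (1.32 to 1.59) for 20 to 50 Mb, with no call for 2 to 5 Mb (1.09, 0.964 to 1.23) or beyond 50 Mb (0.983, 0.883 to 1.09). Txnip-distal-SE had its highest ratios at 10 to 20 Mb (1.48, 1.29 to 1.69) and 20 to 50 Mb (1.50, 1.35 to 1.66), and so had Tdgf1-Lrrc2-SE (1.30, 1.09 to 1.56, and 1.55, 1.31 to 1.83). Elovl6-SE1 was called higher below 5 Mb and in no class beyond it: its ratios were 1.40 (1.20 to 1.64) for 1 to 2 Mb and 0.913 (0.825 to 1.01) for 20 to 50 Mb. The highest ratio of any class was that of Klf4-distal-SE for 5 to 10 Mb, where 53 of 2168 naive and 250 of 2754 primed counts lay, 2.44% and 9.08%, a ratio of 3.71 (2.75 to 5.09).

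**Figure D3:**
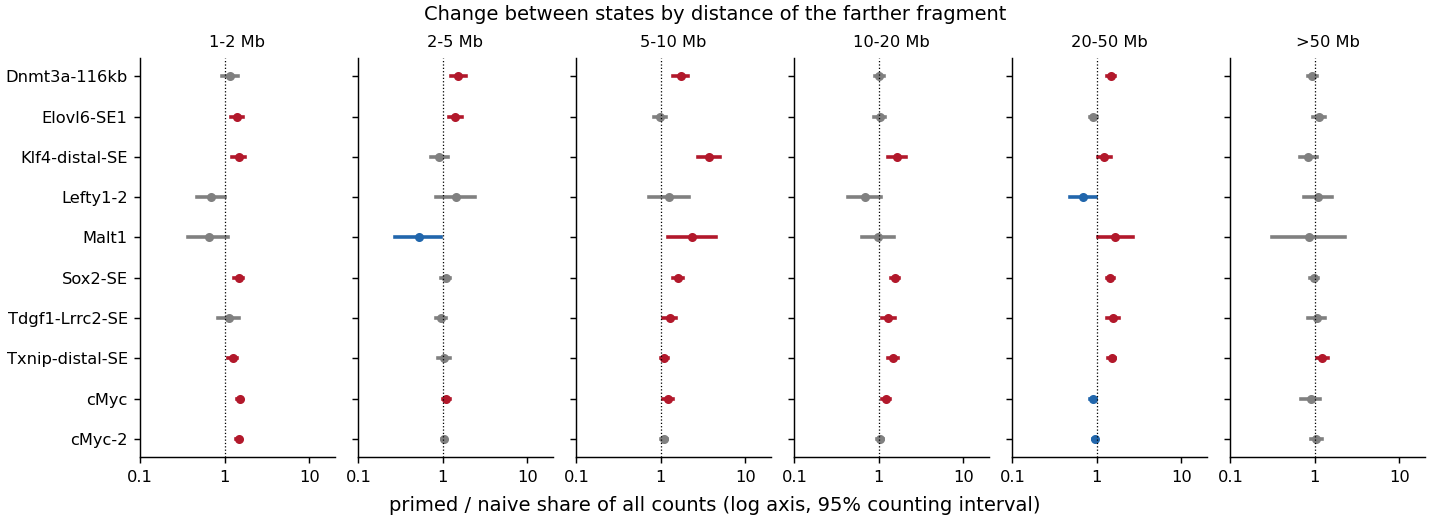
Primed over naive ratio of the share of all counts (horizontal log axis) for each viewpoint, one panel per class of distance of the farther fragment; lines are exact 95% counting intervals, red where they lie above 1, blue where below 1 and grey otherwise. Red dominates at 5-10 Mb (7 viewpoints, Klf4-distal-SE at 3.71), and at 20-50 Mb 6 viewpoints are red while Lefty1-2, cMyc and cMyc-2 are blue.

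The side on which far fragments lay also differed between the states at some viewpoints. Of the 1 to 2 Mb counts of Klf4-distal-SE, 84.5% (78.9 to 89.1) lay downstream in the naive state and 66.4% (61.5 to 71.0) in the primed state. Of its 5 to 10 Mb counts, 41.5% (28.1 to 55.9) and 64.4% (58.1 to 70.3) did so, a ratio of 1.55 (0.990 to 2.54) that was not called. At Txnip-distal-SE the downstream part of the 2 to 5 Mb counts went from 61.3% to 38.8%, a ratio of 0.633 (0.498 to 0.801). Elovl6-SE1 showed a lower downstream part at 1 to 2 Mb, 57.4% and 42.2%, a ratio of 0.736 (0.583 to 0.925). At Sox2-SE it was higher for 2 to 5 Mb, 24.8% and 34.9%, a ratio of 1.41 (1.12 to 1.77), and lower for 5 to 10 Mb, 52.3% and 38.4%, a ratio of 0.734 (0.601 to 0.896). At cMyc-2 it was higher for 2 to 5 Mb, 41.5% and 46.0%, a ratio of 1.11 (1.01 to 1.22). The other combinations of viewpoint and class up to 10 Mb were not called.

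The Klf4-distal-SE gain lay in part over the cluster of major urinary protein genes. These Mup genes, which encode pheromone carriers secreted mainly by the liver, form a tandem family of near-identical copies, so reads there are placed less surely than elsewhere. The cluster of 22 numbered Mup genes, mm10 chr4:59956804-62150841 and 4.48 to 6.67 Mb downstream of the oligo, held 9 naive counts in 9 distinct pairs and 118 primed counts in 106 distinct pairs. As shares of the members this was 1.07% (0.492 to 2.03) and 8.08% (6.73 to 9.59), a ratio of 7.53 (3.83 to 16.9), and 6.76 (3.43 to 15.2) over distinct pairs. The primed counts were spread over 112 fragments, of which the most frequent held 10 counts. In 75 of them both fragments lay in the cluster, and in 28 the partner lay within 1 Mb of the viewpoint. Outside the cluster the 5 to 10 Mb class went from 47 to 153 counts, a ratio of 2.56 (1.84 to 3.63) as a share of all counts. The window was chosen after the bins had been seen. Nearer on the same side, the bin with Epb41l4b, Ptpn3 and Pakap, 1.77 Mb away, went from 6.32% to 2.94% of the members, a ratio of 0.466 (0.304 to 0.710).

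Over all 10 viewpoints, 785 bins of 500 kb lay wholly over 1 Mb from the viewpoint and held 20 counts or more in both states together. As a share of the members, 111 of them (14.1%) were called higher in the primed state and 131 (16.7%) lower, against a percent called of 17.3 higher and 15.2 lower over the bins of all 23 viewpoints. As a share of all counts, which carries the higher megabase-range share of the primed state, 162 were higher and 81 lower. Counted once per distinct pair as well, 73 of the higher and 92 of the lower calls held. Both shares of calls were near the background, and single bins are therefore given as values: for several viewpoints, 1 bin at an end of the ratios among bins of at least 50 counts. From cMyc, the highest ratio was that of the bin with Arc, Psca and genes of the Ly6 family of close copies, with 33 naive and 109 primed counts and a ratio of 3.90 (2.62 to 5.95), but 1.72 (1.05 to 2.84) over distinct pairs. In the primed state 1 fragment held 33 of its counts, which left 76 without it. From Sox2-SE it was the Egfem1 bin, 5.50 Mb upstream, with 11 and 48 counts and a ratio of 3.86 (1.98 to 8.25). From Elovl6-SE1 it was the bin of Dkk2, a modulator of Wnt signalling, with 20 and 39 counts and a ratio of 3.55 (2.02 to 6.42). The bin of Apob and Gdf7 from Dnmt3a-116kb had 56 and 137 counts, a ratio of 2.49 (1.81 to 3.47), but a ratio of 1.15 (0.737 to 1.80) over distinct pairs.

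Among the bins with the lowest ratios, all 8 that were called kept an interval below 1 over distinct pairs, and 7 did as shares of all counts (the bin from cMyc, 0.547, 0.280 to 1.01, did not). From Elovl6-SE1, the bin with Acadm and Msh4 went from 59 to 7 counts, a ratio of 0.216 (0.0831 to 0.473), and 0.246 (0.0754 to 0.630) over distinct pairs. From Txnip-distal-SE, the bin of the steroid dehydrogenase genes Hsd3b1 to Hsd3b6, another family of close copies, went from 48 to 12 counts, a ratio of 0.292 (0.141 to 0.558). From Sox2-SE, the bin with Zfp704 and Pag1 went from 76 to 27 counts, a ratio of 0.315 (0.195 to 0.494). From Tdgf1-Lrrc2-SE, a gene-dense bin with Usp19, Impdh2 and Wdr6 went from 107 to 43 counts, a ratio of 0.359 (0.246 to 0.516), and from cMyc-2 the bin with Smarcd1, Racgap1 and the aquaporin genes went from 48 to 14, a ratio of 0.299 (0.152 to 0.552).

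Several of these low bins were rich in genes, while the bins with the highest ratios ranged from 0 protein-coding genes (cMyc-2) to 21 (cMyc). Gene density was then compared across all far bins, a comparison added after the bins had been seen. Bins wholly over 5 Mb from the viewpoint were called gene-rich with 5 or more protein-coding genes and gene-poor with at most 1. In the naive state, a gene-rich bin held more counts than a gene-poor one at all 10 viewpoints, with intervals above 1. The fold ranged from 1.28 (1.17 to 1.40) at cMyc to 8.59 (7.71 to 9.59) at Txnip-distal-SE, with a median of 2.12. Gene-rich and gene-poor bins were not matched for distance from the viewpoint, so the size of a fold can hold differences of distance as well. In the primed state the fold was lower at all 10 viewpoints, with a median of 1.33. The primed over naive ratio of the folds had a median of 0.629, and its interval, here a normal approximation on the log scale, lay below 1 at 7 viewpoints (all but Malt1, Tdgf1-Lrrc2-SE and cMyc). Over the 14 viewpoints of the series with counts in every class the percent called was 57.1. The viewpoints of 1 state share cells and libraries, and those of chromosomes 3 and 15 share bins, so the 10 values are not independent of each other.

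Elovl6-SE1 had the largest difference. It held 22.9 counts per gene-rich and 3.54 per gene-poor bin in the naive state, a fold of 6.46 (5.84 to 7.16), and 9.26 and 2.96 in the primed state, a fold of 3.12 (2.76 to 3.54), so that the ratio of the folds was 0.484 (0.412 to 0.567). At Sox2-SE the fold went from 1.93 (1.75 to 2.11) to 1.10 (1.00 to 1.20), a ratio of 0.569 (0.501 to 0.647), and at cMyc-2 from 2.10 (1.98 to 2.22) to 1.29 (1.21 to 1.37), a ratio of 0.614 (0.565 to 0.667). At Klf4-distal-SE it went from 2.14 to 1.38, a ratio of 0.644 (0.507 to 0.818). The folds of Txnip-distal-SE, 8.59 and 7.30 (6.56 to 8.13), were the highest in both states, a ratio of 0.849 (0.730 to 0.988), which with bins over 10 Mb away was 0.983 (0.825 to 1.17) and no longer called. The Nanog viewpoint had folds of 2.88 and 2.02, a ratio of 0.701 (0.656 to 0.748).

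**Figure D4:**
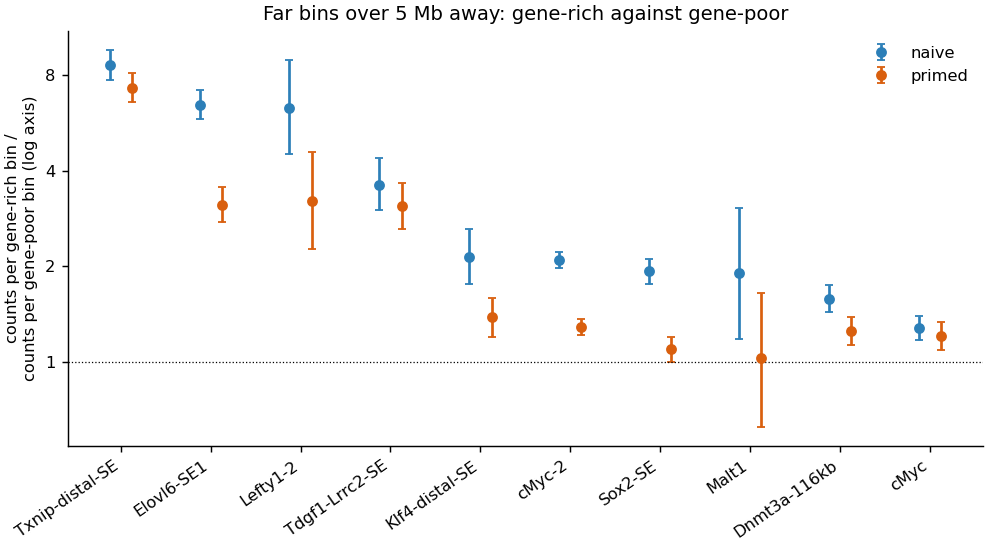
Counts per gene-rich bin over counts per gene-poor bin (vertical log axis) among 500 kb bins over 5 Mb from each viewpoint, naive and primed, ordered by the naive fold; error bars are exact 95% counting intervals. The primed point lies below the naive point at all 10 viewpoints, from 3.12 against 6.46 at Elovl6-SE1 to 1.21 against 1.28 at cMyc.

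Far bins were next set against their own surroundings, the mean of the bins 2 to 4 bins away on each side. Among bins of the 10 viewpoints with a background of 5 counts or more, 17.5% (naive) and 14.6% (primed) had an interval above 1, close to the percent called of 18.3 and 15.2 over all 23 viewpoints. The 3 bins with the highest fold and 30 counts or more were listed for each state of the 7 viewpoints with 1000 member counts or more in each state, 42 listings at 36 places. Of these listings, 27 had an interval above 1 in the other state too, and 6 places were listed in both states. Since the highest folds were picked, their size is a description.

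The places listed in both states included gene-dense regions in which counts were spread over many fragments. From Dnmt3a-116kb, the bin of Baz1a, Psma6 and Nfkbia (mm10 chr12:55000001-55500000), the last encoding the inhibitor of NF-kappaB, and with copies of Srp54 in which reads may be split, held 31 naive counts, 5.03-fold (3.42 to 7.14) over its surroundings, and 54 primed counts, 5.89-fold (4.43 to 7.69). From Tdgf1-Lrrc2-SE, the bin of Trim71, a gene of early embryonic cells, and Ccr4 (chr9:114500001-115000000) held 76 counts, 3.45-fold (2.72 to 4.32), and 90 counts, 4.54-fold (3.65 to 5.58). From Txnip-distal-SE, the bin with Gstm1, Ampd2 and Gnai3 (chr3:108000001-108500000) held 45 counts, 5.40-fold (3.94 to 7.23), and 82 counts, 7.69-fold (6.11 to 9.54), values that were 3.00 and 4.85 over the bins 1 to 6 away. The bin with Gclm and Abca4 held 43 counts, 5.27-fold (3.81 to 7.09), in both states. The primed counts of the Gstm1 bin involved 86 fragments, none with more than 3 counts, though Gstm1 too belongs to a family of close copies. The Mycn bin from Dnmt3a-116kb, 9.06 Mb away and with the oncogene Mycn as its single protein-coding gene, was listed in the naive state with 36 counts, 2.96-fold (2.07 to 4.10), and held 44 counts, 2.44-fold (1.78 to 3.28), in the primed state.

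A different kind was a place that a single fragment or a short stretch created. From cMyc-2, the bin of Tuba1c and Prph held 285 naive and 168 primed counts, 6.33-fold and 6.55-fold over its surroundings, but 252 and 149 of these held 1 fragment, chr15:99110055-99110501, between Dnajc22 and Spats2 and 37.1 Mb from the oligo. The 252 naive counts came from 119 distinct pairs and the 149 primed counts from 78. In 216 naive and 125 primed counts of that fragment the partner lay within 1 Mb of the viewpoint, and in none within 100 kb of the fragment itself. Without it the bin lay at 0.733-fold (0.505 to 1.03) and 0.740-fold (0.446 to 1.16). From cMyc, 31.5 kb away on the same chromosome, the same fragment held 4 naive and 2 primed counts. From Elovl6-SE1, the fragment chr3:10290737-10291494 in Fabp12, 119 Mb away, held 40 of the 41 naive counts (in 36 distinct pairs) and 13 of the 14 primed counts of its bin, and 31 of the naive partners were within 1 Mb of the viewpoint.

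The highest fold over the bins 2 to 4 away, 22.3 (19.2 to 25.9) with 175 naive counts, was that of the Elovl6-SE1 bin from Syde2 to Gng5 (chr3:146000001-146500000), 16.7 Mb downstream, against 35 counts and 4.67-fold (3.25 to 6.49) in the primed state. Over the bins 1 to 6 away its naive fold was 13.8, below that of the Fabp12 bin (17.6) and close to that of the Tdgf1-Lrrc2-SE bin described next (13.9). Within it, 153 naive counts (87.4%) fell in 1 stretch of 25 kb, chr3:146475001-146500000, which overlaps Spata1 and the edge of Gng5, on 40 fragments, and in 88.0% of the counts both fragments lay in the bin. The partner lay within 1 Mb of the viewpoint in 6.86%. From Sox2-SE and Txnip-distal-SE the same bin held 4 and 6 naive counts, 1.60-fold (0.436 to 4.10) and 1.80-fold (0.661 to 3.92). The Tdgf1-Lrrc2-SE bin of Dppa5a and Ooep (chr9:78000001-78500000), genes of the oocyte and early embryo of which Dppa5a is strongly transcribed in pluripotent cells, came next with 37 naive counts over a background of 1.83, 20.2-fold (14.2 to 27.8), on 38 fragments with at most 5 counts each. In the primed state it held 21 counts over a background of 7.50, 2.80-fold (1.73 to 4.28), so its fold changed more than its counts. The naive background was under the limit of 5 counts used for the percents called, which was not applied to the listings. The error of that low background is left out of the interval, so the rank of this bin is uncertain. Without the most frequent fragment of each bin, the interval stayed above 1 for 36 of the 42 listings.

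**Figure D5:**
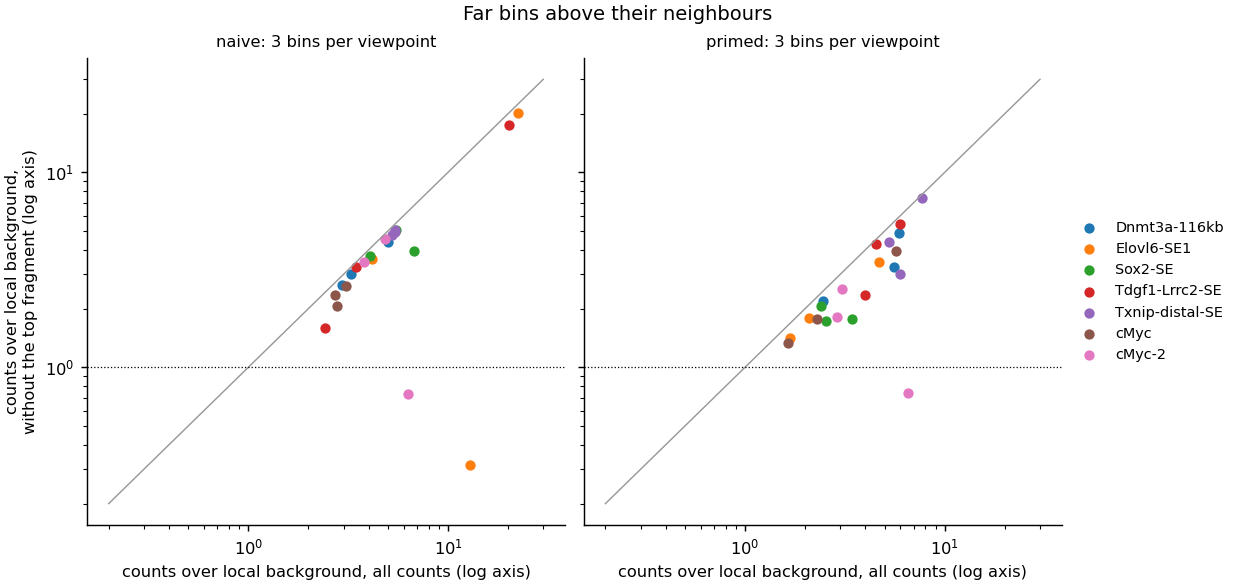
Counts over the local background with all counts (horizontal log axis) and without the most frequent fragment of the bin (vertical log axis), for the 3 listed bins of each of 7 viewpoints in each state; each point is 1 bin of 1 pooled table and the grey line marks equal values. The cMyc-2 bin (6.33-fold naive, 6.55-fold primed) and the naive Elovl6-SE1 bin at Fabp12 drop below 1, while the 22.3-fold Elovl6-SE1 and 20.2-fold Tdgf1-Lrrc2-SE bins stay near the line.

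Some listed places on chromosomes 3 and 15 also stood out from another viewpoint of the same chromosome. The naive Sox2-SE bin with Zfp704 and Pag1, 76 counts and 5.49-fold (4.33 to 6.88), held 12 counts from Txnip-distal-SE, 6.55-fold (3.38 to 11.4) over a low background of 1.83 counts, but no count from Elovl6-SE1. With a background of 5 counts or more from the second viewpoint, 12 comparisons could be made on each of chromosomes 3 and 15. The place chr3:116500001-117000000 was listed in the naive state from both Elovl6-SE1 (4.16-fold) and Txnip-distal-SE (5.41-fold) and entered from each. Its values from the second viewpoint were thus themselves picked folds. On the same chromosome, 1 listing of Sox2-SE entered with both other viewpoints. The second viewpoint had an interval above 1 in 6 of 12 on each chromosome, beside 17.5% (naive) and 14.6% (primed) of all such bins. On chromosome 3 the twice-listed place makes the 6 of 12 and these percents unlike measures. That Sox2-SE listing held 2.42-fold (1.50 to 3.70) from Elovl6-SE1 and gave the single interval below 1 from Txnip-distal-SE, at 0.771-fold (0.589 to 0.993). On chromosome 15 the folds from the second Myc viewpoint ranged from 0.346 to 2.82, and were below those of the viewpoint that listed the bin in every case, as the picking of the highest folds favours.

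Profiles along the chromosome were more alike between the Myc viewpoints than among the 3 viewpoints of chromosome 3, which lie 32.9 to 94.8 Mb from each other. Across 159 bins over 10 Mb from both Myc viewpoints, Spearman's rho between cMyc and cMyc-2 was 0.662 in the naive and 0.444 in the primed state, beside 0.403 between the states for cMyc and 0.651 for cMyc-2. These bins held a median of 14 and 9 counts from cMyc and 33 and 29 from cMyc-2, and shallow bins lower any rho. Across 231 bins of chromosome 3 over 10 Mb from both viewpoints, rho between Txnip-distal-SE and Elovl6-SE1 was 0.459 (naive) and 0.269 (primed), between Sox2-SE and Txnip-distal-SE 0.165 and -0.0508, and between Sox2-SE and Elovl6-SE1 -0.0292 and -0.382. These bins held a median of 2 to 8 counts per viewpoint and state. All bins share both viewpoints' fall with distance, which runs in opposite directions where viewpoints lie far apart, and their gene density. Between the states of 1 viewpoint, rho over the 2 sets of bins that each viewpoint enters was 0.664 and 0.606 for Sox2-SE, 0.523 and 0.436 for Txnip-distal-SE, and 0.662 and 0.556 for Elovl6-SE1.

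On chromosome 3, counts within 500 kb of each other viewpoint were also set against the windows around. Such a window is far wider than an enhancer, and several held fewer counts than their surroundings. Sox2-SE had 39 naive counts within 500 kb of Txnip-distal-SE, 3.08-fold (2.19 to 4.21) over the windows around, and 21 primed counts, 0.926-fold (0.573 to 1.42). Seen from Txnip-distal-SE, the Sox2-SE window had 10 and 11 counts, 0.833-fold (0.400 to 1.53) and 1.22-fold (0.610 to 2.19), so the interval above 1 was seen from Sox2-SE in the naive state and not from Txnip-distal-SE. Sox2-SE had 14 naive and 8 primed counts at Elovl6-SE1, 2.63-fold (1.43 to 4.40) and 1.41-fold (0.610 to 2.78), while Elovl6-SE1 had 7 and 4 at Sox2-SE, 1.83-fold (0.734 to 3.76) and 0.923-fold (0.252 to 2.36), so here too the interval above 1 was seen from 1 side. Txnip-distal-SE had 29 and 24 counts at Elovl6-SE1, 1.67-fold (1.12 to 2.40) and 1.78-fold (1.14 to 2.64), while Elovl6-SE1 had 36 and 28 at Txnip-distal-SE, 0.809-fold (0.567 to 1.12) and 1.18-fold (0.786 to 1.71).

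The Myc viewpoints, on either side of the gene, differed in how far they reached. In the naive state, cMyc had 12.5% of its counts at 1 to 2 Mb and cMyc-2 7.41%, a cMyc-2 over cMyc ratio of 0.596 (0.560 to 0.633). For 20 to 50 Mb the values were 9.02% and 13.5%, a ratio of 1.49 (1.41 to 1.58). In the primed state the same ratios were 0.577 (0.545 to 0.611) and 1.59 (1.47 to 1.71). cMyc was captured with pool 2 and cMyc-2 with pool 1, so position and library cannot be told apart here. Both viewpoints had most of their 1 to 2 Mb counts downstream of Myc, cMyc 82.3% (80.6 to 83.9) naive and 84.3% (82.7 to 85.8) primed, cMyc-2 74.1% (72.2 to 76.0) and 74.4% (72.7 to 76.0). Apart from Myc, neither side has a protein-coding gene within 1 Mb of these viewpoints, and the nearest are A1bg upstream and Gsdmc downstream.

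The bin of the gasdermin genes Gsdmc to Gsdmc4 and Cyrib, 1.77 Mb downstream of cMyc, was the fullest, with 1073 naive counts (17.7% of the members) and 1238 primed counts (24.2%), a ratio of 1.36 (1.25 to 1.48). From cMyc-2 it held 1163 (10.7%) and 1474 (13.9%), a ratio of 1.30 (1.20 to 1.40). As shares of all counts these ratios were 1.64 (1.51 to 1.78) and 1.42 (1.31 to 1.53). The next bin, with Cyrib and Asap1, made up a smaller part of the members: 5.11% and 3.65% from cMyc, a ratio of 0.715 (0.593 to 0.860), and 5.07% and 4.09% from cMyc-2, a ratio of 0.807 (0.710 to 0.917). Neither call held as a share of all counts, where the ratios were 0.861 (0.714 to 1.04) and 0.881 (0.775 to 1.001). Both viewpoints were captured from the same replicates, so their values are not independent. Of far fragments, 1062 were found from both Myc viewpoints in the naive state, 19.3% of those of cMyc and 11.2% of those of cMyc-2.

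The study lists a putative Sox2 enhancer far downstream of the gene and names it by its distance from Sox2. Placed by that name from the Sox2 start, it lies 1.19 Mb from the Sox2-SE oligo. The 100 kb around it, chr3:35882995-35982995, held 67 naive counts in 60 distinct pairs and 47 primed counts in 45. As shares of the members these were 1.92% (1.49 to 2.43) and 1.19% (0.878 to 1.58), a ratio of 0.621 (0.418 to 0.915), but as a share of all counts the ratio was 0.821 (0.553 to 1.21) and not called. Against the 3 windows of the same size that lay over 1 Mb from the viewpoint, all of them farther from it, the counts were 2.51-fold (1.95 to 3.19) and 1.09-fold (0.797 to 1.44).

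Genes of pluripotency and development on the viewpoints' chromosomes were read from a list of 54, chosen with results of these data known. For 47 of them, in 68 combinations with a viewpoint, the start lay over 1 Mb away. With a background of 5 counts or more, the count within 250 kb of the start lay above the surroundings in 11 of 34 combinations in the naive state (median fold 0.713) and in 21 of 34 in the primed state (median fold 1.20). The interval lay above 1 in 4 naive combinations, 11.8% against a percent called of 18.3, and in 6 primed ones, 17.6% against 15.2. It lay below 1 in 12 naive and 5 primed combinations. The share of all far bins with an interval below 1 was not computed, so these counts have no background and no depletion is read from them. Some windows overlap, such as those of Krt8 and Krt18, so calls are repeated. Both states had Lef1, a factor of Wnt signalling, from Txnip-distal-SE (27 naive counts, 3.86-fold, and 16 primed, 2.04-fold) and Mycn from Dnmt3a-116kb (32, 2.63-fold, and 40, 2.70-fold). Tet2, a DNA demethylase, from Elovl6-SE1 (51 counts, 1.59-fold) and Txnip from Sox2-SE (24 counts, 2.62-fold) were above 1 in the naive state. In the primed state these were Txnip (18 counts, 1.86-fold) and the receptor gene Notch2 (14 counts, 2.05-fold) from Elovl6-SE1, Prtg (26 counts, 3.90-fold) from Tdgf1-Lrrc2-SE and Zfpm2 (60 counts, 1.47-fold) from cMyc-2. The naive value of Prtg was higher than its primed one (15 counts, 6.92-fold, 3.88 to 11.4) but was not counted because its background, 2.17, was under 5.

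As a share of the members, 8 of 28 combinations with 20 counts or more had a called ratio between the states, 2 higher in the primed state and 6 lower, beside a percent called of 17.3 higher and 15.2 lower over far bins. As a share of all counts 5 were higher and 4 lower, and the calls of Txnip from Sox2-SE (0.537, 0.237 to 1.14) and Krt8 (0.603, 0.337 to 1.05) among those that follow were lost. Zfpm2, a cofactor of GATA factors, from cMyc-2 had 18 naive and 60 primed counts, a ratio of 3.42 (1.99 to 6.15), and Id2, an inhibitor of differentiation factors, from Dnmt3a-116kb had 11 and 24, a ratio of 2.22 (1.05 to 5.03). In the naive state both windows lay below their surroundings, at 0.356-fold (0.211 to 0.563) and 0.303-fold (0.151 to 0.542). Id2 did not rise above its surroundings in the primed state either, at 0.778-fold (0.499 to 1.16). Called lower in the primed state were Txnip from Sox2-SE, 24 and 11 counts with a ratio of 0.406 (0.179 to 0.861), and 5 genes downstream of Myc from cMyc-2. The Txnip gene lies inside the Txnip-distal-SE window described before, so these counts are shared with it. Among the 5 genes, Hoxc13, in the HoxC cluster of patterning genes, had 72 and 15 counts, a ratio of 0.214 (0.114 to 0.376), and its neighbour Hoxc4 62 and 20, a ratio of 0.331 (0.189 to 0.555). The windows of both genes overlap, as do those of Rarg, a retinoic acid receptor, and the keratin gene Krt8, whose ratios were 0.425 (0.226 to 0.765) and 0.552 (0.309 to 0.962). Sox10, a factor of neural crest, had 31 and 12 counts, a ratio of 0.397 (0.186 to 0.795).

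From cMyc, Hoxc13 had 23 and 9, a ratio of 0.462 (0.188 to 1.04), and Hoxc4 24 and 10, a ratio of 0.492 (0.210 to 1.07), both below 1, as from cMyc-2, but not called. The other windows did not follow cMyc-2: Rarg had 12 and 11 counts, a ratio of 1.08 (0.433 to 2.68), Krt8 7 and 11, a ratio of 1.86 (0.657 to 5.64), and Zfpm2 14 and 11, a ratio of 0.928 (0.381 to 2.20). Sox10 went the other way, with 5 and 14 counts and a ratio of 3.31 (1.12 to 11.7). The values of Sox10 and Krt8 stood outside the 28 combinations, since they rested on fewer than 20 counts.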

How the data were processed

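Tri-C libraries of 12 samples, 3 biological replicates of 2 states captured with 2 oligo pools, were sequenced by the authors, processed with CapCruncher against mm10 and passed through their own scripts, which kept reads with 2 or more cis reporter fragments. Aligner, CapCruncher version and removal of duplicates were not given in the sources used here. In all, 46 tables were deposited, 1 for each of 23 viewpoints and each state. They hold the raw counts per fragment pair that the authors obtained, with replicates already pooled, so depth is known per state and not per sample. Fragment starts were read as 0-based, since 530 of 530 starts inside RefSeq promoter sequences of GRCm38.p6 followed a GATC, and are printed 1-based.

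Distances ran from the oligo start to fragment midpoints, with 1 Mb as the limit. The oligo sequences and positions came from the study's list of oligos. Gene positions came from RefSeq for GRCm38.p6, the assembly of mm10; the strand of genes without a promoter entry was taken by name from an older annotation. Shares had Clopper-Pearson intervals, ratios between states the exact interval of the conditional split of both counts, and counts over a local background Poisson intervals, all at 95%, the error of the background itself left out. A call is an interval that excludes 1. There was no test. Bins of 500 kb entered the state comparison with 20 counts or more, and the lists with 50 (highest and lowest ratio) or 30 (3 highest over the bins 2 to 4 away). The members, the gene list and the rules were chosen with earlier results of these data known; the gene-density comparison, the Mup window, the limit of 5 background counts and the use of bins wholly over 1 Mb away were added after the bins had been seen. The interval functions were tested on simulated counts. Python 3.11.15, numpy 2.4.6, pandas 2.3.3, scipy 1.17.1 and matplotlib 3.10.9 were used. One result is not reported here, and not every listed bin is named.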

Additional observations from a re-analysis of the deposited data

How the results depend on the processing

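No paired analysis was possible because each deposited table joins the 3 replicates of a state; for the same reason, a replicate block and leaving out replicates were not run. Of 60 alternative values of the primed over naive ratio of the megabase-range share, 42 moved by less than counting error, 17 moved and 1 reversed. With each distinct pair counted once, the ratio was 0.991 at Elovl6-SE1, 1.04 at cMyc-2, 1.10 at Tdgf1-Lrrc2-SE, 1.12 at Dnmt3a-116kb, 1.14 at cMyc, 1.16 at Sox2-SE and 1.18 at Txnip-distal-SE. Without counts that held a fragment within 10 kb of the oligo, it was 1.05 at Tdgf1-Lrrc2-SE, where the interval then held 1, and 1.19 at both Klf4-distal-SE and Sox2-SE, so that Klf4-distal-SE no longer had the highest ratio. Elovl6-SE1 lost its call here too (1.01), as with both fragments far (1.02) and a limit of 2 Mb (1.03). With both fragments far, it was 1.29 at cMyc, 1.31 at Tdgf1-Lrrc2-SE, 1.39 at Sox2-SE and 1.54 at Klf4-distal-SE. With a limit of 500 kb it was 1.27 at cMyc and 1.16 at cMyc-2, and 1 viewpoint, Lefty1-2, was called lower (0.813, 0.696 to 0.949). With a limit of 2 Mb it was 1.04 at cMyc and 1.005 at cMyc-2, and 5 viewpoints, not 8, were called higher. As shares of all counts rather than of the members, 81 far bins, not 131, were called lower and 162, not 111, higher, and of 51 named bins, genes and windows 48 moved by less than counting error and 3 moved. The ratio of the gene-rich over gene-poor folds moved under 1 of 40 alternatives, to 0.662 at Sox2-SE with bins split at the median gene number. Among the 7 calls, Txnip-distal-SE lost its own with bins over 10 Mb away (0.983) and Dnmt3a-116kb without the 10 most counted fragments (0.872, 0.756 to 1.01). Calls were gained as well: 10 viewpoints were called with bins split at the median gene number and 8 over distinct pairs. With bins over 10 Mb away, and without the 10 most counted fragments, 7 were called. The ratio of the folds was 1.01 at cMyc with bins over 10 Mb away, and in the other 39 alternative values it stayed below 1. For the part of the members with both fragments far, the call at Tdgf1-Lrrc2-SE was lost over distinct pairs (1.08, 0.976 to 1.20) and that at cMyc with a limit of 2 Mb (1.03, 0.960 to 1.10), while Klf4-distal-SE gained one over distinct pairs (1.15, 1.01 to 1.31). Of 84 alternative values of the bins over their local background, 67 moved by less than counting error and 17 moved. All 42 kept an interval above 1 over distinct pairs, and 41 did with a background of the bins 1 to 6 away. The cause of these shifts was not tested, and with replicates pooled no spread between cultures could be set beside them.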
